A study of Homo sapiens with 2 samples.

Results

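The Rab GTPases were read here as the probe sets annotated to genes whose symbol is RAB, a number and at most 1 letter from A to D. Of the genes with a probe set of their own on the array, 56 had such a symbol, out of 19775 in all, and 44 of the 56 were measured. The study profiled K562, a human leukaemia cell line with erythroid features, on Affymetrix arrays. The control cells received the retroviral vector pMSCV, and the other cells a retrovirus that overexpresses PML4, an isoform of the promyelocytic leukaemia protein that builds PML nuclear bodies. Both were grown under G418 selection for 3 weeks, and each group is 1 array, so no difference has a replicate and no test between groups is given. The labels do not say whether the selected cells were a pool or a clone.

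Rab proteins are small GTPases of the Ras superfamily that give intracellular membranes their identity. Each cycles between a GDP-bound form, held in the cytosol by a dissociation inhibitor, and a GTP-bound form on a membrane, where it recruits motors, tethers and other effectors. Exchange factors load GTP, activating proteins speed its hydrolysis, and lipid groups on cysteines near the end of the protein anchor it. In blood cells Rabs are best known for iron uptake through the recycling transferrin receptor and for the release of granules.

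Signals are in MAS5 units on a linear scale, MAS5 being Affymetrix's method of combining the probes of a probe set into 1 value. A probe set counted as measured where its signal passed 72.4, the median of all human probe sets, on at least 1 array, and lower signals were raised to that floor. A difference is the log2 signal with PML4 less that with the control vector, each gene standing on its measured probe set of highest mean signal, and a call is a difference of at least 2-fold. Signals of different probe sets are not set against each other as levels, since probes bind with different strength. Where several probe sets read 1 Rab gene, the median gap between their differences was 0.29 in log2 units over 75 pairs, and it was also 0.29 over the 16239 pairs of all genes. That gap is the only error available here, and it covers neither arrays nor cultures.

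MAS5 scales an array by its mean signal without the lowest and highest 2%, which was 499.9 with the control vector and 500 with PML4. The median signal was 80.6 and 64, and 51.9% and 48.1% of human probe sets were above the floor. The 3' to 5' ratio was 1.55 and 1.53 for GAPDH and 2.94 and 2.80 for ACTB. Of 8 genes that mark K562 and erythroid cells 7 were analysed, and each, GATA1, KLF1 and TFRC among them, passed the floor on both arrays. Their summed signal was 52056 with the control vector and 75074 with PML4, of which TFRC alone was at 17625.2 and 31653.7. GATA1, KLF1, HBE1, HBZ and TFRC were higher with PML4. TAL1, at 2679.9 and 1861.8, and LYL1, at 6849.5 and 5534.2, were lower. The part of these markers in the results was not tested. Of 23 markers of T cells, B cells, monocytes, fibroblasts and epithelium 8 passed the floor on both arrays, including EPCAM, KRT18, CD3D and LYZ, while CD14, MS4A1, CD2 and COL1A2 were below it. The 3 measured T cell markers, all chains of the CD3 complex, summed to 2710 and 5381. Of these CD3D and CD3G were higher with PML4, and CD3E, at 105.9 and 55.3, was lower. The 3 epithelial ones summed to 15828 and 17180, with EPCAM and KRT19, the latter at 1362.8 and 3098.8, higher and KRT18 lower. The measured monocyte markers summed to 3283 and 3177, and the fibroblast ones to 513 and 336. CD79A, the only measured B cell marker, was at 205.5 and 170.7. PML was read by 10 probe sets, of which 2 were at least 2-fold higher and 1 at least 2-fold lower with PML4.

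Most Rab genes differed by less than 1.5-fold between the arrays. Those past it were grouped by role under secretion and exocytosis, apart from RAB30, a Golgi Rab whose probe sets disagreed. RAB37 was the only call: 1 of 44 measured Rab genes was at least 2-fold higher, against a background of 1.23% of 12541 genes, and none was at least 2-fold lower, against 3.21%. RAB8B, RAB8A and RAB30 were also higher by at least 1.5-fold, which makes 4 of 44 against 5.70% of all genes. RAB27A and RAB3B were lower by at least 1.5-fold, 2 of 44 against 11.9%. The other 38, or 86.4%, had differences under 1.5-fold with the floor applied, as did 82.4% of all genes. Of these 38, RAB3A, RAB36 and RAB39A were below the floor on 1 array, so their differences are lower bounds and are not shown to be under 1.5-fold. The share of calls that are higher depends on scaling for the array as a whole. It was 27.7% with the deposited scaling, 41.1% with quantile normalization, 37.8% with loess and 35% when centred on the median gene. RAB37 was the only Rab call under each of these.

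**Figure D1:**
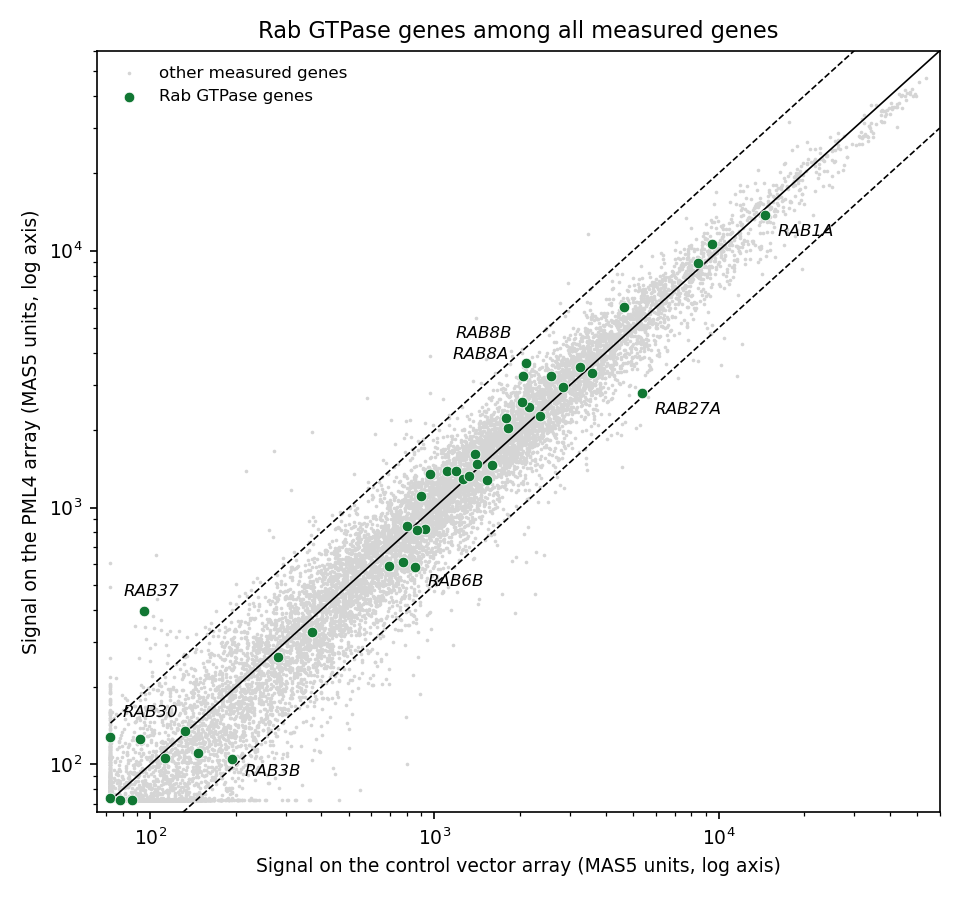
Signal of each measured gene on the control vector array (x axis) and the PML4 array (y axis), both in MAS5 units on log axes, with signals below the floor of 72.4 raised to it. Green points are the 44 Rab genes and grey points the other genes, the solid line is equality and dashed lines mark 2-fold. RAB37 lies above the upper dashed line, and RAB27A and RAB3B lie just inside the lower one.

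The median difference of the 44 Rab genes was 0.05 on the log2 scale, and that of all genes was -0.05. By sign alone 26 Rab genes (59.1%) were higher and 18 lower with PML4, where 44.7% of all genes were higher. Among genes above the 75th percentile of signal 56.6% were higher, as were 10 of the 14 Rab genes there (71.4%). Below that percentile 40.7% of all genes and 16 of the other 30 Rab genes (53.3%) were higher. With the mean over each gene's probe sets the split of the 44 was 22 and 22 and their median -0.01, against -0.06 for all genes. The sign of the family's median thus rests on which probe sets are read. Set against the median of all genes, it was higher by 0.05 to 0.12 across the settings. Of the 44 genes 14 lay above the 75th percentile of mean signal among all genes. None of these 14 was called higher or lower, against 0.510% and 0.702% of the 3136 bright genes. By 1.5-fold, RAB8A and RAB8B were at least 1.5-fold higher, against 4.02% of bright genes, and RAB27A was lower, against 3.54%.

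The RAB8 paralogs, which carry vesicles from the Golgi and recycling endosomes to the plasma membrane and into cilia, were both higher with PML4. RAB8A is read by 208819_at alone, at 2052.2 with the control vector and 3250.6 with PML4, higher by 1.58-fold. RAB8B was at 2103.7 and 3642.6 on 226633_at, a 1.73-fold difference. Its other probe sets, 222846_at at 410.6 and 780.6 and 219210_s_at at 147.6 and 426.2, were higher by 1.90-fold and 2.89-fold. All 4 probe sets of the pair thus pointed one way, and both genes stayed past 1.5-fold in each of the 8 alternative settings. All settings reuse the same arrays. For RAB8A, with 1 bright probe set, only the changes of scaling and the pseudocount could alter the value. Averaged over its probe sets RAB8B reached a log2 difference of 1.08, past the size of a call.

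RAB27A, which docks secretory lysosomes and melanosomes at the cell membrane and whose loss causes Griscelli syndrome, had the lowest difference of the family. On 209515_s_at it was at 5356.3 with the control vector and 2796.6 with PML4, 1.92-fold lower and just short of a call. The probe sets 222294_s_at, at 3092.5 and 1268.4, and 235766_x_at, at 3514.4 and 1951.0, were lower by 2.44-fold and 1.80-fold. By contrast 209514_s_at, at 2724.1 and 2384.9, and 210951_x_at, at 3048.9 and 2735.5, were lower by only 1.14-fold and 1.11-fold. All 5 therefore had the lower signal on the PML4 array, in 3 of them by a large and in 2 by a small difference. Their mean was -0.68 on the log2 scale, against -0.94 for the probe set that stands for the gene. Which transcripts each probe set reads was not examined.

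RAB37, a Rab of mast cell granules and regulated exocytosis, had the highest difference of the family. Its only probe set, 228113_at, was at 95.1 with the control vector and 395.4 with PML4, higher by 4.16-fold. The control signal is close to the floor, and no other probe set checks the value. In the RefSeq annotation CD300LF lies inside the RAB37 gene, and its probe set was below the floor on both arrays, at 11.5 and 32.9. The log2 difference was between 1.75 and 2.24 in the 7 settings that measured the gene. With the floor at the 75th percentile RAB37 was not measured at all.

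RAB6B, the Golgi Rab known from neurons, differed in the same direction on each of its probe sets. The probe set 221792_at was at 855.8 with the control vector and 584.5 with PML4, 1.46-fold lower. Next to it 210127_at was at 637.2 and 398.2, and 225259_at at 494.9 and 317.8, which is 1.60-fold and 1.56-fold lower. The differences of the 3 spanned -0.68 to -0.55, a narrower range than the usual gap between probe sets. Its ubiquitous paralog RAB6A has 1 probe set of its own, below the floor on both arrays. Probe sets shared with RAB6C or RAB6D read it too, and the brightest of these were at 3953.4 and 3189.5 and at 4210.7 and 3782.3, within 1.5-fold.

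**Figure D2:**
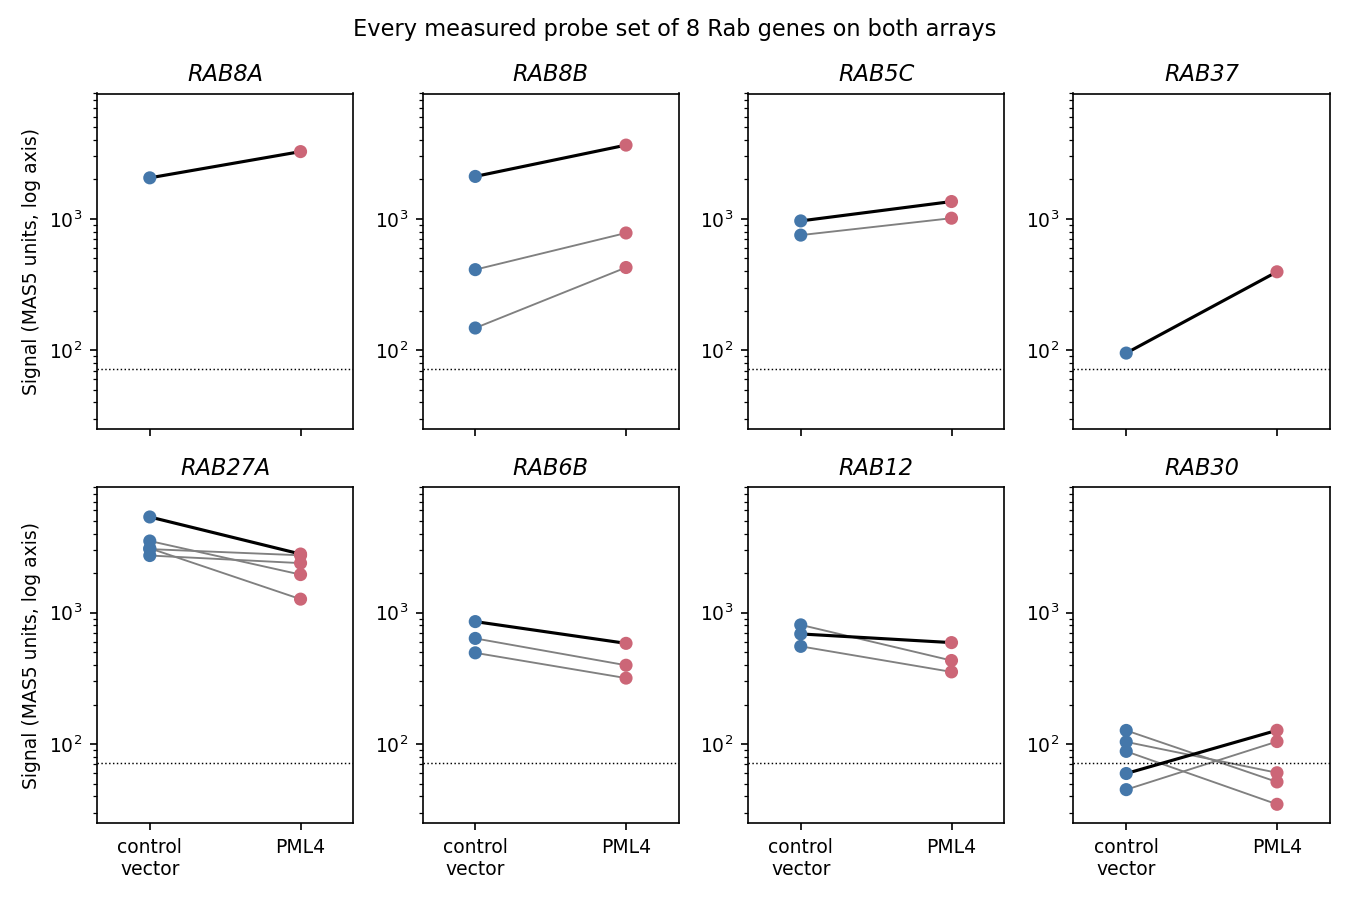
Signal of every measured probe set of 8 Rab genes on the control vector array (blue, left) and the PML4 array (red, right), in MAS5 units on a log axis, with lines joining the values of 1 probe set and the thick line marking the one that stands for the gene. The dotted line is the floor of 72.4. All probe sets of RAB8B slope up, all of RAB27A, RAB6B and RAB12 slope down, and those of RAB30 cross.

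Promoter stretches are shown for the RAB8 pair, which was higher together, and for RAB27A and RAB6B, chosen after their values were seen from the genes whose probe sets were all lower. Each is the 250 bases before the outermost start of the gene in RefSeq on GRCh38.p14, written 5' to 3' on the gene's strand: chr19:16111639-16111888 on the plus strand for RAB8A, chr15:63189356-63189605 on the plus strand for RAB8B, chr15:55319124-55319373 on the minus strand for RAB27A and chr3:133895883-133896132 on the minus strand for RAB6B. Capitals mark GGGCGG, the GC box, and CCAAT, each on either strand, and no marked stretches overlap.
RAB8A: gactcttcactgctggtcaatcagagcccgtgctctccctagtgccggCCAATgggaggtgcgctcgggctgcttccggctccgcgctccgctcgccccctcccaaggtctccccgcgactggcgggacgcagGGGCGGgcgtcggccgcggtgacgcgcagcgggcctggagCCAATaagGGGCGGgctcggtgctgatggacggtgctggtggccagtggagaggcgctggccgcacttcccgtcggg
RAB8B: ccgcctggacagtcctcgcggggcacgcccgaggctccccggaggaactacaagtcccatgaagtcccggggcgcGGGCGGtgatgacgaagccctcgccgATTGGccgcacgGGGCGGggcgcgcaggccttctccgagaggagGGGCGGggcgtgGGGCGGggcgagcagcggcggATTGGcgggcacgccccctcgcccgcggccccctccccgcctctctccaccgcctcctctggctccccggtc
RAB27A: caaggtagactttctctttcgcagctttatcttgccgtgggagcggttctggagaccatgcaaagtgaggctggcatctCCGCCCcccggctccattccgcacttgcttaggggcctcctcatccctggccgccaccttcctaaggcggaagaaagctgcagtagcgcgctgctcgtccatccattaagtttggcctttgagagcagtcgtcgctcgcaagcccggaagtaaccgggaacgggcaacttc
RAB6B: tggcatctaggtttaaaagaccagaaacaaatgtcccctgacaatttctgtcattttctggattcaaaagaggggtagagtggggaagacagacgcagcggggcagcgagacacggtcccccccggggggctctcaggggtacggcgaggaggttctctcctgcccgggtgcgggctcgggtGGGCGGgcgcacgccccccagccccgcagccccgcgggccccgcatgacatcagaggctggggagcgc
RAB8A holds 2 GC boxes and 2 CCAAT motifs, and RAB8B 4 and 2. RAB27A and RAB6B hold 1 GC box each and no CCAAT in this window. RAB27A has 5 annotated starts and RAB6B 2, of which only the outermost is printed. CCAAT was found in the window of at least 1 other start of RAB27A, and in no window of RAB6B. The base composition of the windows also differs, with a GC content of 72.4% in RAB8A, 77.2% in RAB8B, 58.8% in RAB27A and 65.2% in RAB6B. These are matches of letters and not sites of binding.

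The table of promoters held 69 windows of 49 genes with a Rab symbol. RAB37, RAB12 and RAB1A are not in it. GGGCGG was found in 72.5% of the Rab windows and in 42.6% of all 35116 windows, while the median GC content was 64.4% and 58.0%. CCAAT was found in 29.0% and 32%. The E-box CACGTG was in 5 of 69 windows (7.25%) against 6.34% of all, in the genes RAB4A, RAB5A, RAB21, RAB24 and RAB31. The motif of erythroid GATA factors, searched as AGATAA, was in 4 (5.80%) against 9.17%. The core of the cAMP response element, searched as TGACGT, was also in 4 against 7.10%. The element TGATGCAA, bound by ATF4, was found in none of the 69 and in 0.772% of all windows. Both strands were searched in each case.

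Genes of secretory granules and exocytosis were the most spread group. Of 11 measured members only 6 (54.5%) had differences under 1.5-fold, the bound of RAB3A among them, where 82.4% of all genes did. Of bright genes 92.4% did, and of the other genes, where RAB37 and RAB3B lie, 79.1%. The bright members, RAB8A, RAB8B and RAB27A, were all past 1.5-fold. Of the 6 Rab genes beyond 1.5-fold 5 are in this group. The grouping by role is only 1 reading, since several Rabs act at more than 1 compartment. RAB8A and RAB8B are among these 5, so the count depends on placing that pair here. The group's median was 0.17, with 6 genes higher and 5 lower, so it did not move as a block. RAB3B, of the RAB3 group that primes vesicles for regulated release, was at 193.9 with the control vector and 104.9 with PML4, 1.85-fold lower. Its second measured probe set, 239202_at, was at 76.1 and 67.6, near the floor, and with both averaged the log2 difference was -0.48. RAB3D was at 372.1 and 329.0, and RAB3A at 78.3 and 33.4, a bound because the PML4 signal is below the floor. RAB3D was within 1.5-fold. The deposited signals of RAB3A differ 2.34-fold, but its size is not resolved at this floor, and RAB3C was below the floor on every probe set.

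RAB38 and RAB32, which act together in making melanosomes and platelet dense granules, were both slightly higher. RAB38 was at 91.9 and 125.1, a 1.36-fold difference near the floor, which reached 0.69 on the log2 scale after quantile normalization. RAB32 was at 1185.7 and 1390.9, a 1.17-fold difference. RAB13, a Rab of epithelial junctions, was at 1816.8 and 2045.7. RAB26, of exocrine granules, was at 146.8 and 111.2 on one probe set and at 87.1 and 96.8 on the other, so its direction is not settled.

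Early endosomal Rabs mostly had a higher signal with PML4, by less than 1.5-fold. Of 7 measured genes 6 were higher, with a median of 0.31 on the log2 scale. None reached 1.5-fold, and 82.4% of all genes were under it too. Of all genes 44.7% were higher, and of those above the 75th percentile of signal, where only RAB5A of the 7 lies, 56.6%. Of genes below that percentile 40.7% were higher. The split was the same under each scaling, and with the mean over probe sets it was 5 and 2 with a median of 0.04. RAB5C, of the RAB5 group that governs fusion of early endosomes, was at 964.6 and 1354.6 on 201140_s_at and at 752.1 and 1011.5 on 201156_s_at, higher by 1.40-fold and 1.34-fold. RAB5A was at 4641.2 and 6037.0, a 1.30-fold difference, on its brightest probe set and at 476.1 and 561.9 on the next. The other, 240990_at, was at 191.9 and 129.5 and so ran the other way. RAB5B was at 1257.8 and 1292.4, a 1.03-fold difference, so the 3 paralogs were not alike in size.

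RAB22A and RAB31, close relatives that sort cargo between endosomes and the Golgi, were higher on each measured probe set. RAB22A was at 894.1 and 1103.8 and at 843.3 and 1101.4, differences of 1.23-fold and 1.31-fold. RAB31 was at 1788.1 and 2223.9 on its main probe set, a 1.24-fold difference, and its other probe sets were 1.08-fold and 1.10-fold higher. RAB21, which traffics integrins, was at 1110.5 and 1387.8 on 203885_at, but 239329_at, at 582.4 and 464.7, and 226268_at, at 312.3 and 225.8, were lower. Averaged over them RAB21 had a log2 difference of -0.16, against 0.32. RAB20 was the lower member of the group, at 775.5 and 616.3, a 1.26-fold difference on 1 probe set.

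**Figure D3:**
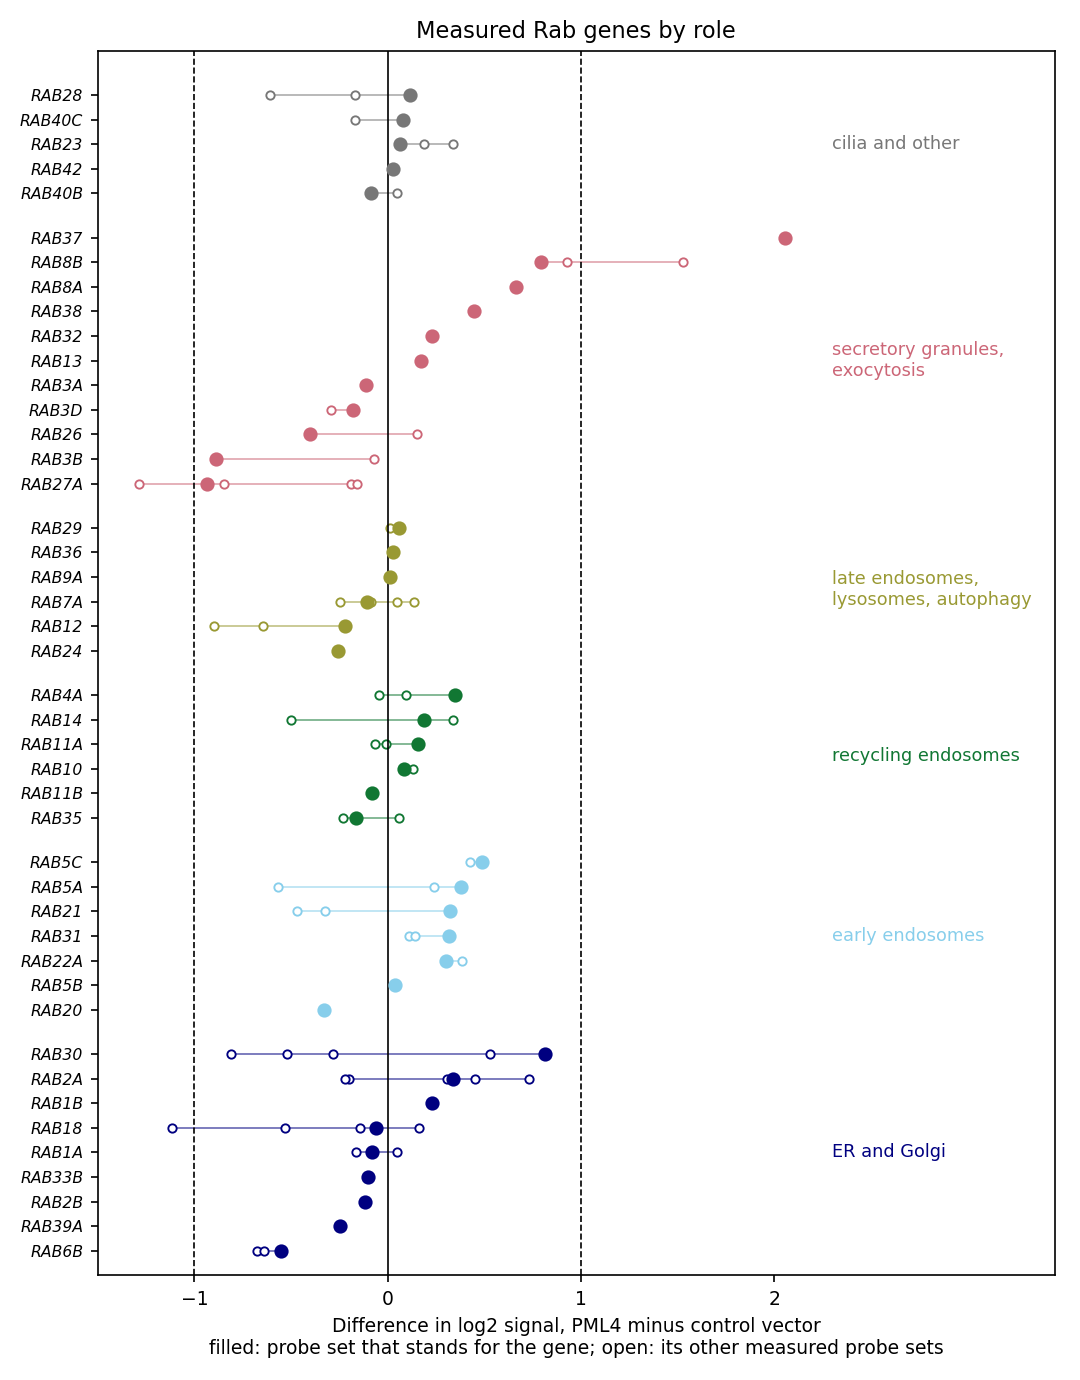
Difference in log2 signal, PML4 minus control vector (x axis), for each of the 44 measured Rab genes, ordered within 6 groups by role. Filled points are the probe set that stands for the gene, open points its other measured probe sets, and dashed lines mark 2-fold. The secretory group spans -0.94 to 2.06, while the groups of late endosomes and of cilia lie between -0.26 and 0.12 on their main probe sets, with RAB36 drawn at its bound.

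Recycling Rabs, among them those that return the transferrin receptor to the surface, differed little. All 6 measured genes stayed within 1.5-fold, as did 82.4% of all genes, and their median was 0.12. RAB11A, the main Rab of the slow recycling compartment, was at 9468.5 and 10569.1, and its other measured probe sets, at 2994.6 and 2859.6 and at 692.5 and 688.4, were level. RAB4A, of the fast recycling route, was at 2025.8 and 2576.6 on 203581_at, a 1.27-fold difference, and at 2111.4 and 2252.6 on 203582_s_at. Its other probe set, 206272_at, was slightly lower, at 944.9 and 914.5. RAB10, which acts in exocytic recycling, was at 8472.5 and 8984.2 and at 3351.1 and 3671.8. Apart from RAB4A these differences were all within 1.12-fold. RAB14, between the Golgi and endosomes, was at 2152.6 and 2453.0 and at 1871.1 and 2362.9, and 1 dim probe set was at 152.6 and 107.9. RAB35 was at 923.4 and 824.3 on its brightest probe set, and its others ran both ways. RAB11B was at 112.2 and 106.1, and its sign flipped after quantile normalization and loess centring.

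Late endosomal, lysosomal and autophagy Rabs had no difference of 1.5-fold on the probe sets that stand for them, with RAB36 known only as a bound. Of all genes 82.4% were under 1.5-fold. The median over the 6 measured genes, that bound included, was -0.05. RAB7A, which drives fusion of late endosomes with lysosomes, was at 3583.6 and 3327.3 on 211961_s_at and at 1804.0 and 1981.9 on 211960_s_at. Over its 5 measured probe sets the log2 difference ran from -0.25 to 0.14. RAB9A, which returns mannose 6-phosphate receptors to the Golgi, was at 1321.3 and 1332.1, a value whose sign flipped after quantile normalization and loess centring. RAB29, a partner of the kinase LRRK2, was at 1414.3 and 1474.1. These differences were smaller than the gap between probe sets. RAB24, an atypical Rab linked to autophagy, was at 1529.6 and 1280.0, 1.20-fold lower on 1 probe set. RAB36 was at 28.8 and 73.7, and passed the floor by a small margin on the PML4 array only. Its deposited signals differ 2.56-fold, and the size is not resolved at this floor.

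RAB12, which steers transferrin receptor to degradation, is a gene whose size depends on the probe set. The one that stands for it, 236019_at, was at 689.3 and 592.2, 1.16-fold lower. With PML4 235059_at was 1.87-fold lower, at 808.0 and 432.6, and 239891_x_at 1.56-fold lower, at 554.4 and 354.4. All 3 had a lower signal with PML4, and their mean was -0.59 on the log2 scale, just past 1.5-fold.

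Rabs between the endoplasmic reticulum and the Golgi ran both ways. Of 9 measured genes 8 (88.9%) had differences under 1.5-fold, the bound of RAB39A among them, where 82.4% of all genes did. The group's median was -0.08. RAB1A, needed for transport out of the endoplasmic reticulum, was at 14601.2 and 13781.3 on 208724_s_at and at 2407.2 and 2490.1 on 207791_s_at, and its other measured probe set at 787.3 and 702.5. RAB1B was at 1383.3 and 1619.2, a 1.17-fold difference. The pair thus differed by less than the gap between probe sets. RAB2A, also of this group, was at 2579.7 and 3254.9, a 1.26-fold difference, and 4 of its 6 measured probe sets were higher. Over these 6 the log2 difference ran from -0.22 to 0.73. RAB2B was at 1590.2 and 1463.3, the other way by 1.09-fold.

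RAB18, found on the endoplasmic reticulum and lipid droplets, was level on its bright probe sets and lower on dimmer ones. The bright ones were at 2359.7 and 2263.1, 2246.1 and 2030.4, and 1529.1 and 1711.9. In contrast 229398_at was at 375.7 and 173.0, 2.17-fold lower, and 243496_at at 431.2 and 298.3. RAB33B, which takes part in forming autophagosomes, was at 280.6 and 261.2, with a sign that flipped after quantile normalization and loess centring. RAB39A was at 85.9 and 54.1, a bound near the floor, and its size is not resolved.

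RAB30, a Golgi Rab, had probe sets that disagreed. Those higher on the PML4 array were 229072_at, at 59.7 and 127.3, and 228390_at, at 45.0 and 104.5. The lower ones were 228003_at, at 127.0 and 51.5, 206530_at, at 103.9 and 60.5, and 227842_at, at 88.0 and 34.8. Each of the 5 was below the floor on 1 array, so every difference is a bound, and the mean over them was -0.05 on the log2 scale. The 1.76-fold higher value that stands for RAB30 therefore rests on the choice of probe set.

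The remaining 5 measured genes stayed within 1.5-fold on the probe sets that stand for them, as did 82.4% of all genes. Their median was 0.06. RAB23, a brake on Hedgehog signalling in cilia, was at 2828.5 and 2953.7, with each of its 3 probe sets slightly higher. RAB28, a ciliary Rab of photoreceptors, was at 3238.6 and 3509.1 on 227003_at, at 1465.2 and 1300.9 on 209084_s_at and at 463.1 and 303.9 on 207495_at. Its direction differs between probe sets, and the mean over them was -0.22 on the log2 scale. RAB40B and RAB40C, which join a ubiquitin ligase through a SOCS box, were at 865.9 and 815.0 and at 802.5 and 848.3. RAB42 was at 132.7 and 135.2.

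Across the family the agreement between probe sets was that of other genes. Of 27 Rab genes with several measured probe sets 7 had all of them higher, 5 had all of them lower and 15 were mixed. Counting only those that passed the floor on each array, 11 of 22 Rab genes (50%) and 52.4% of all 5453 such genes had them in 1 direction. Of 100 measured Rab probe sets 2 were at least 2-fold higher, against 1.33% of 23607, and 2 at least 2-fold lower, against 3.05%. The higher ones read RAB37 and RAB8B, and the lower ones RAB27A and RAB18.

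Members below the floor numbered 12: RAB3C, RAB4B, RAB6A, RAB7B, RAB9B, RAB15, RAB17, RAB25, RAB33A, RAB39B, RAB40A and RAB43. Their own probe sets reached at most 65.9 on either array, which bounds the signal and does not show absence of the transcript. For RAB4B, RAB6A and RAB43 brighter probe sets exist that the annotation gives to several genes. RAB34, RAB6C and RAB6D had only such shared probe sets, and RAB19, RAB1C, RAB41 and RAB44 were not analysed here. RAB6A and RAB6C are near-identical copies in part, as are other close paralogs, so signals can hold cross-hybridisation.

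Genes of the Rab cycle, taken from a list of 189, showed 1 call. Of 168 measured, none was at least 2-fold higher, against 1.23% of all genes, and SGSM1, a TBC domain protein, was lower at 149.7 and 65.9, against 3.21%. That value is a bound with the PML4 signal below the floor, and it fell short of a call after centring, quantile normalization and loess centring. By 1.5-fold 8 were higher (4.76%) and 19 lower (11.3%), close to the 5.70% and 11.9% of all genes. The list's median was -0.06, against -0.05 for all genes.

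Of the named enzymes and carriers of Rab proteins, most were level on their brightest probe sets. GDI2, a dissociation inhibitor that extracts Rabs from membranes, was at 15813.3 and 14489.4. RABGGTB, the catalytic subunit of the geranylgeranyl transferase that attaches the lipid anchors, was at 2611.2 and 2789.8, and RABGGTA, its partner subunit, at 434.5 and 368.4. CHML, an escort protein that presents Rabs to this enzyme, was at 5312.4 and 4569.6, and its 2 dimmer probe sets were lower by 1.30-fold and 2.28-fold. Averaged over its probe sets CHML had a log2 difference of -0.60, just past 1.5-fold. The brightest probe set of each of these 4 genes differed by less than the gap between probe sets. RABAC1, a membrane protein that binds prenylated Rabs, was at 825.7 and 492.0, 1.68-fold lower on its single probe set. CHM was not analysed here.

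Of 35 measured TBC domain and other activating proteins 10 (28.6%) had a higher signal with PML4 and 25 a lower one, where 44.7% of all genes were higher. The group's median was -0.17, against -0.05 for all genes, and the lower genes outnumbered the higher ones in each of the 8 alternative settings, with medians from -0.17 to -0.13. RAB3GAP1, the catalytic subunit of the RAB3 activating complex, was at 6144.1 and 3977.3, 1.54-fold lower. Its probe sets 213530_at, at 1426.2 and 829.7, and 212932_at, at 1158.5 and 830.0, were lower by 1.72-fold and 1.40-fold. Genes of prenylation, the attachment of the lipid anchors, and of membrane cycling also leaned lower. Of these 14 genes 5 (35.7%) were higher and 9 lower, with a median of -0.10. For the remaining groups the split was closer. Exchange factors were higher in 21 and lower in 27 of 48, and effectors, tethers, kinases and phosphatases in 34 and 37 of 71. ANKRD27, an exchange factor for RAB21, was at 4991.6 and 6475.9, and VPS35, a subunit of the retromer complex that binds RAB7A, at 5900.0 and 6966.1.

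**Figure D4:**
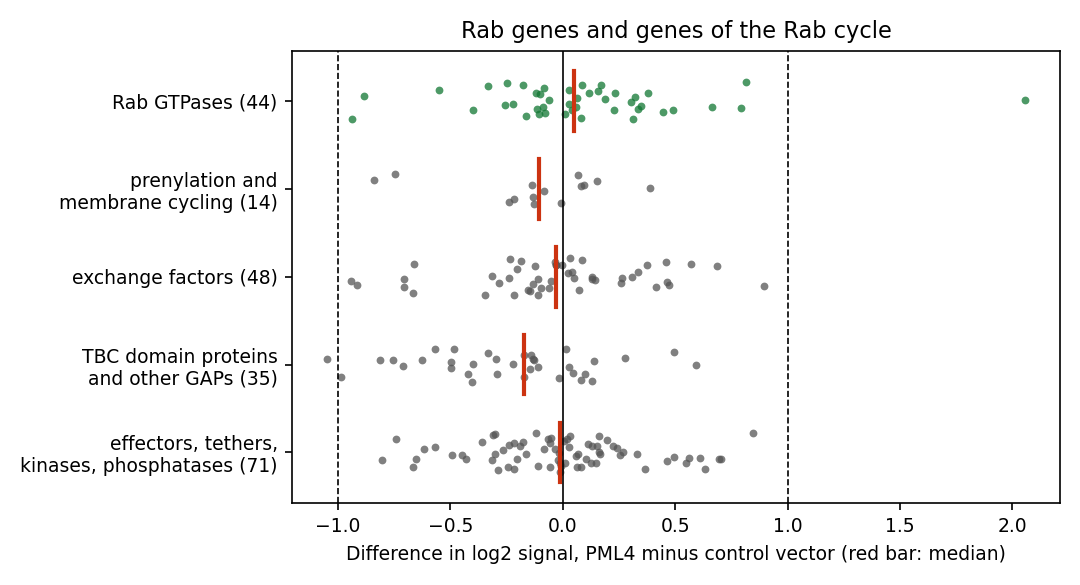
Difference in log2 signal, PML4 minus control vector (x axis), for the 44 measured Rab genes (green) and for measured genes of the Rab cycle in 4 groups (grey), 1 point per gene with vertical scatter for visibility only. Red bars are medians, at 0.05 for Rab genes and -0.17 for TBC domain and other activating proteins, and dashed lines mark 2-fold.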

How the data were processed

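Expression was measured in K562 cells on 2 arrays, 1 with the control vector and 1 with PML4. The deposited values are signal intensities on a linear scale, made by the authors with MAS5 per the submitters' processing notes. The sources used here do not give its version or scaling target. Each array took 6 µg of RNA, per the labels' protocols.

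Of 54675 probe sets 62 are control probe sets. GEO's annotation of the array gave 1 gene for 41097 and several for 1801, and genes were named from the former. All 135 such probe sets of Rab genes matched a current RefSeq gene by Entrez identifier. The annotation names no genome build. A gene took its measured probe set of highest mean log2 signal, after raising signals to the floor of 72.4, and 12541 genes were measured. One further gene with a symbol of this form was set aside and is not reported here.

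A single array per group allows no replicate error, p-value or interval, and the number of arrays limits the precision. Members and gene lists were chosen with earlier results of these data known. By plan the named members were those past 1.5-fold, the 8 of highest signal, and those with opposed probe sets. For some of them not every measured probe set is printed. Of the Rab cycle, a fixed set of genes, the calls and the 4 of highest signal were named. Other members and probe sets given were added after their values were seen. Other settings tried were quantile normalization, loess centring (span 0.4), centring on the median gene, a floor at the 25th or at the 75th percentile, a pseudocount of 32 in place of a floor, averaging a gene's probe sets, omitting _x_at and _s_at probe sets, and calls at 1.5-fold or 3-fold. The calculation was tested on simulated data. Python 3.11.15 with pandas 2.3.3 and statsmodels 0.14.6 was used.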

Additional observations from a re-analysis of the deposited data

How the results depend on the processing

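RAB37 was called higher in each of the 7 settings that measured it. With the floor at the 25th percentile 4 Rab genes were called higher (RAB15, RAB30, RAB36 and RAB37) and 1 lower (RAB3A). With the floor at the 75th percentile 0 were called higher, because RAB37 dropped below it. The mean over probe sets gave 2 higher calls, RAB37 and RAB8B, and calls at 1.5-fold gave 4 higher and 2 lower. The family's median was between -0.01 and 0.10. For genes of the Rab cycle, calls at 1.5-fold gave 8 higher and 19 lower, while a 25th percentile floor gave 3 higher and 7 lower. The 1 lower call among them became 4 without a floor, 4 when _x_at and _s_at probe sets were omitted, and 0 with a 75th percentile floor, centring, quantile normalization, loess centring and calls at 3-fold. The cause was not tested. Of 399 single differences under an alternative, 384 moved by less than the 0.29 between probe sets of a gene and 15 by more. Several settings cannot change the value of a bright gene, so many of these small moves were fixed in advance. Only the calls RAB37 and SGSM1 were checked for a change of sign, and neither changed. Among members not called, RAB9A, RAB11A, RAB11B, RAB21, RAB28, RAB30, RAB33B and RAB40C changed sign in at least 1 setting. No paired analysis was possible because each group holds 1 array. Leaving out a replicate was not possible either.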

Other observations

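Transcripts that neighbour Rab genes were also on the array. RAB30-DT, a noncoding transcript starting next to RAB30, was at 774.8 and 702.3 on 228612_at and at 273.8 and 217.9 on 228643_at, with the control vector and with PML4. Both probe sets were within 1.5-fold. RAB11B-AS1, named as the antisense transcript of RAB11B, was at 294.8 and 275.2 on one probe set and at 277.8 and 240.7 on the other.

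Probe sets that the annotation gives to several genes, at least 1 of them a Rab gene, numbered 11, and 8 of them were measured. Their PML4 to control ratios ran from 0.603 to 1.57, so none reached 2-fold.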
